A study of Homo sapiens with 6 samples.

Results

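Cohesin and condensin are ring-shaped protein complexes that hold and fold chromosomes, and the 10 subunit genes described here are SMC1A, SMC3 and RAD21 of cohesin, SMC2 and SMC4 of both condensins, NCAPD2, NCAPG and NCAPH of condensin I, and NCAPD3 and NCAPG2 of condensin II. They were chosen by name, as genes that encode subunits of these complexes, from the 28563 genes of the deposited table. Cells labelled HepG2, an established human cell line from a liver cancer, were given 336 µM PD (polydatin, a plant glucoside of resveratrol) or DMSO, the control, for 24 h. RNA was sequenced from 3 dishes per treatment, with 1 library per dish. By the labels both groups are the same line in the same kind of culture, so the results are of 1 cell line. The comparison asks which subunit transcripts differed after PD.

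The values are FPKM, which scale each gene's sequenced fragments by exon length and by library size. Because FPKM are per length, levels of different genes can be set side by side, as far as the exon lengths used are right. Libraries held 16308476 to 18071632 fragments, and each subunit gene had between 1042 and 7640 fragments in every library. The liver label was checked against 18 hepatocyte genes, of which 9 have a row and 2 reached 1 FPKM in any library. CPS1, an enzyme of the urea cycle, was at 222, 228 and 225 FPKM in DMSO and 111, 108 and 106 FPKM in PD. RBP4, a carrier of retinol, was at 0.323 to 0.479 FPKM in DMSO and 1.06 to 1.73 FPKM in PD. The other hepatocyte genes with a row, including HNF4A and APOA1, stayed under 1 FPKM. Most of the defining hepatocyte markers that have a row were thus near 0 and did not bear out the liver label. The identity of the line was not tested otherwise, and ALB and AFP were not analysed here. Of 5 epithelial genes, 4 have a row and 3 reached 1 FPKM in any library. KRT8 was at 48.3 to 52.3 FPKM in DMSO and 65.7 to 70.5 FPKM in PD, KRT18 was at 45.6 to 48.5 FPKM in the 6 libraries, and EPCAM was at 0.882 to 1.54 FPKM, whereas CDH1, the epithelial cadherin, named with its value known, was near 0 with a mean of 0.127 FPKM in DMSO and 0.0343 FPKM in PD. Among 11 markers of blood, endothelium and fibroblasts, 7 have a row and COL1A1 alone reached 1 FPKM, with a summed level of 3.61 to 4.29 FPKM in DMSO and 3.63 to 4.06 FPKM in PD.

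Both complexes are built on a pair of SMC proteins, long coiled-coil ATPases that meet at a hinge, and on a kleisin, which closes the ring between their heads. Cohesin holds sister chromatids together from replication until anaphase and also extrudes the chromatin loops of interphase. Condensin I reaches chromosomes after the nuclear envelope breaks down and condensin II is nuclear throughout the cycle, and together they shape mitotic chromosomes. Dividing cells need all 3 complexes, and many genes of chromosome condensation are transcribed most in G2 and mitosis through CHR elements (cell cycle genes homology regions) and CCAAT boxes close to their start sites, whereas E2F sites are typical of genes transcribed from late G1 into S phase.

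Stretches of the promoters are printed first because most of these genes moved in the same direction, and because the elements named above are the ones known from genes of the cell cycle. The windows are those of RefSeq on GRCh38.p14, from 250 bases before to 50 bases after an annotated start, with the first transcribed base counted as 1. Of the 10 genes, 9 have a window and 13 windows were searched on both strands for the CHR core TTTGAA, the CHR variant TTTAAA, the CCAAT box CCAAT and the E2F site TTCCCGC or TTGGCGC. Read on the other strand, a CCAAT box can share letters with the latter E2F site, but no matches overlapped in these windows. RAD21 has no window in the table. The stretches read 5′ to 3′ along the gene's strand, and capitals mark any of these elements on either strand.
NCAPG, chr4:17810929-17810978, plus strand, bases -50 to -1: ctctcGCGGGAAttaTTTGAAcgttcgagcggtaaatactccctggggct
NCAPD2, chr12:6493930-6493989, plus strand, bases -172 to -113: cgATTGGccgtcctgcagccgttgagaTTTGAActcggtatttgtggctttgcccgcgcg
SMC4, chr3:160399550-160399609, plus strand, bases -100 to -41: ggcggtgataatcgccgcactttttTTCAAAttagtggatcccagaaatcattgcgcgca
SMC3, chr10:110567515-110567574, plus strand, bases -180 to -121: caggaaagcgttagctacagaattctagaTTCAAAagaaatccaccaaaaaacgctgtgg
SMC2, chr9:104094254-104094311, plus strand, bases -55 to 3: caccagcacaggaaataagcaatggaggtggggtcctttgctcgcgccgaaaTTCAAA
NCAPD3, chr11:134223965-134224022, minus strand, bases -55 to 3: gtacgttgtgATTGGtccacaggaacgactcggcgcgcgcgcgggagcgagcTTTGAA
NCAPG2, chr7:158704755-158704778, minus strand, bases 27 to 50: gcgggtgcgTTTGAAtctggtccg
NCAPH, chr2:96335626-96335685, plus strand, bases -140 to -81: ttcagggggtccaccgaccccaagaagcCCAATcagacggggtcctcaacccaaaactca
SMC1A, chrX:53422655-53422714, minus strand, bases -60 to -1: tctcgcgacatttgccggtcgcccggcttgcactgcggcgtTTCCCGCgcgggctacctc

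The CHR core was in a window of 7 of the 9 genes, which are the first 7 printed above, and in 7 of their 13 windows. Over all RefSeq windows of this length it was in 15.2% of 35116 windows and in at least 1 window of 18.2% of 27305 genes. NCAPG held it at base -35 on the gene's strand with an E2F site a few bases before it at base -45 on the other strand. NCAPD2 held it at base -145, between CCAAT boxes on the other strand at bases -170 and -70. SMC2, SMC4 and NCAPD3 have 2 windows each and held it in 1 of them, from which the stretch is printed. In SMC2 and NCAPD3 it spanned the annotated start of that window. In NCAPG2 it lay at base 36, inside the transcript. The windows of SMC1A and NCAPH did not hold these letters. SMC1A had an E2F site at base -19 in 1 of its 2 windows, and NCAPH had a CCAAT box at base -112 and the CHR variant at base 33.

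CCAAT boxes were in the windows of 3 of the 9 genes, NCAPD2, NCAPD3 and NCAPH, against 34.6% of all windows and 39.7% of all genes. E2F sites were also in 3 of the 9, SMC1A, NCAPG and NCAPD3, against 9.23% of windows and 11% of genes. The CHR variant was in NCAPH, against 12.2% of windows and 14.5% of genes. A match describes these letters in this window and was not tested as a binding site.

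**Figure D1:**
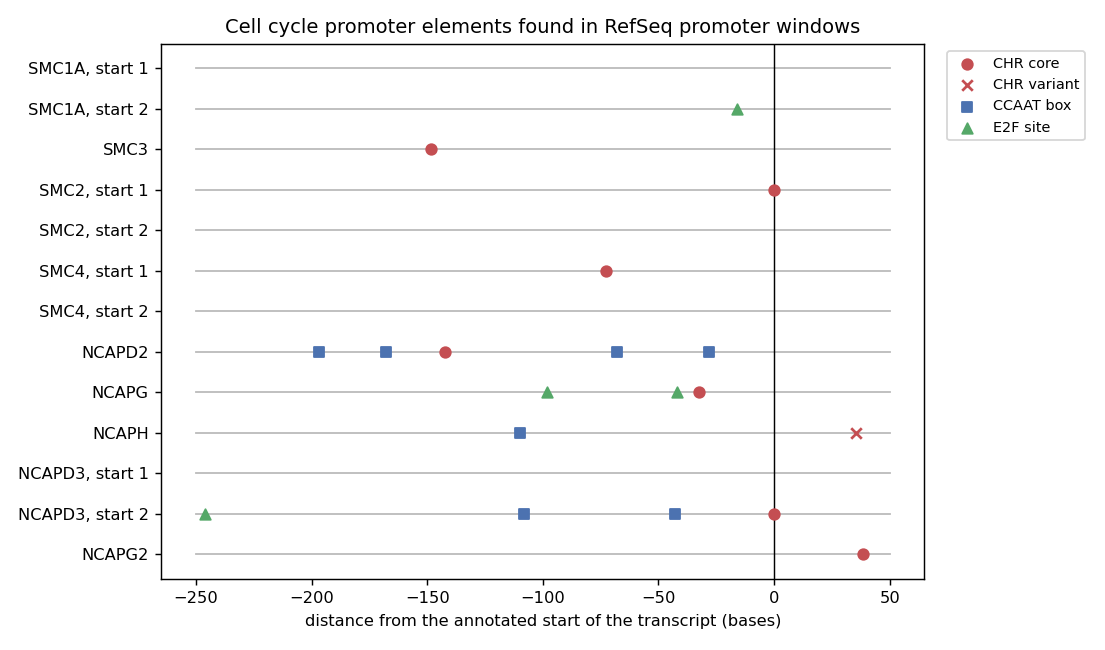
Positions of 4 searched elements in the RefSeq promoter windows of 9 subunit genes, with distance from the annotated start in bases on the x axis and 1 line per window; each mark stands at the centre of a match on either strand. CHR cores (circles) are on the lines of 7 genes and absent from those of SMC1A and NCAPH, and NCAPD2 has 4 CCAAT boxes (squares).

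After 24 h of PD most subunit transcripts were lower. RAD21, SMC4, NCAPG, NCAPD2, SMC3 and SMC2 fell to between 0.634 and 0.785 of their DMSO level, NCAPG2 fell to 0.889 and NCAPD3 to 0.930, SMC1A rose to 1.15, and NCAPH did not pass the test at 1.03. By limma on log2(FPKM + 1), with p-values adjusted by the Benjamini-Hochberg method over all 14400 tested genes and called at an adjusted p of at most 0.05, 8 of the 10 were downregulated, against 26.2% of all tested genes, and 1 was upregulated, against 31.9%. A gene called in either direction was frequent in this comparison, at 58.1% of tested genes. No subunit gene was a DEG, a called gene that also changed at least 2-fold, and DEGs were 1.57% of tested genes downward and 2.04% upward. These 520 DEGs became 1248 with a pseudocount of 0.1 and 1735 with limma voom. The median log2 fold change of the 10 genes was -0.36, with a range of -0.64 to 0.20, whereas that of all tested genes was 0.01 with quartiles of -0.25 and 0.29. All PD libraries were below all DMSO libraries for 8 of the 10 genes, against 29.9% of tested genes, and above them for 1, against 35.6%; the groups were apart in either direction for 65.4% of tested genes. In bulk RNA, fewer cells in the phase that expresses a gene and less RNA per cell cannot be told apart.

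**Figure D2:**
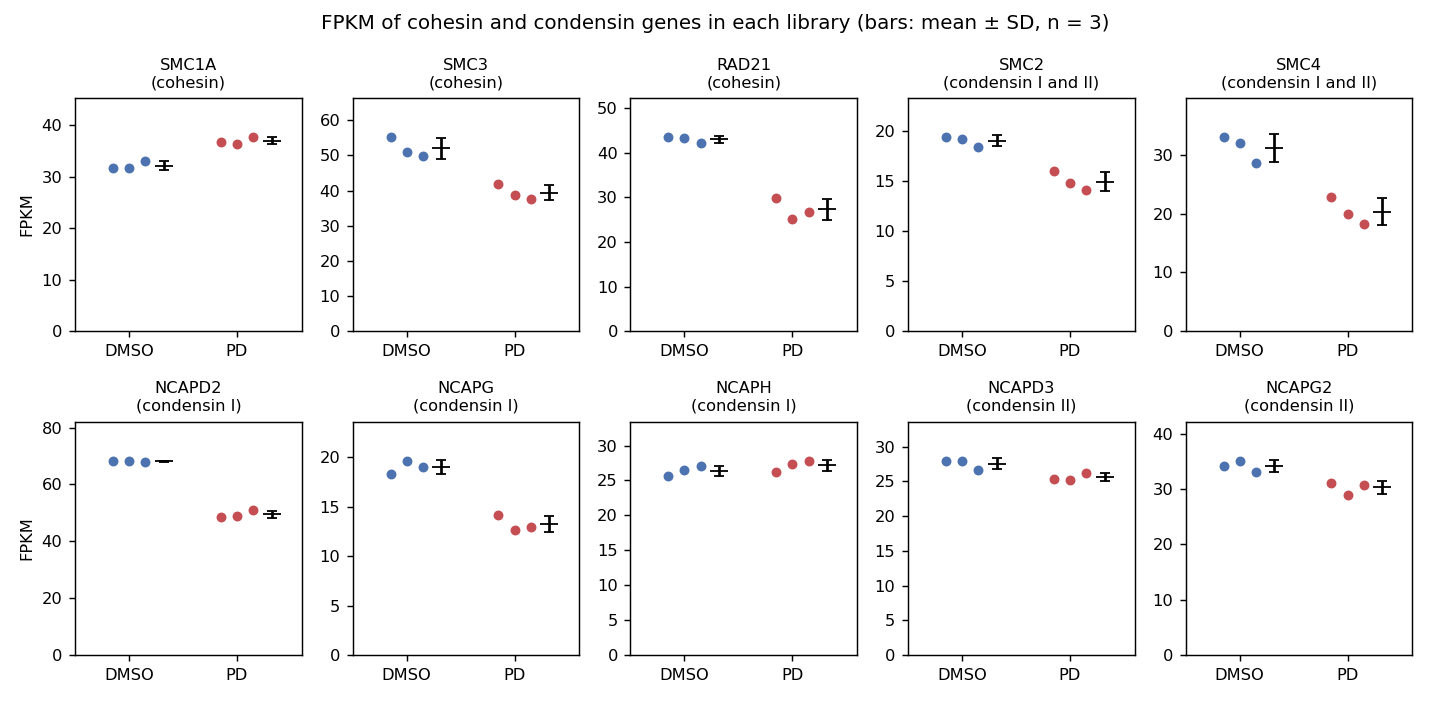
FPKM of the 10 subunit genes in each of the 3 DMSO (blue) and 3 PD (red) libraries, 1 panel per gene with its own y axis starting at 0; black bars give mean ± SD. The PD points lie below the DMSO points in 8 panels, above them for SMC1A, and among them for NCAPH.

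In cohesin, RAD21 (ENSG00000164754), the kleisin that separase cuts at anaphase, was at 43.6, 43.3 and 42.2 FPKM in DMSO and 29.9, 25.2 and 26.6 FPKM in PD. The groups were far apart and the PD libraries varied more. Its mean fell from 43.0 ± 0.755 to 27.3 ± 2.42 FPKM (SD, n = 3), a log2 fold change of -0.64 (SE 0.06, 95% interval -0.78 to -0.50, limma adjusted p = 9.7e-05), which was the largest in size among the 10 genes. Without a stated strand setting, fragments from exon bases that overlap another gene cannot be told apart. Of its exon bases in GENCODE, RAD21 shares 4.01% with UTP23 and 1.88% with RAD21-AS1, both on the other strand. It shares 0.341% with MIR3610 on the same strand. These exon bases exceed the length behind the FPKM of RAD21, so the shares do not describe the gene as measured. UTP23 was also lower in PD at 4.29 ± 0.384 against 6.11 ± 0.284 FPKM (SD, n = 3).

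SMC3 (ENSG00000108055, chr10:110567684-110606048, plus strand), the SMC subunit whose head is acetylated when cohesion is set up, was at 55.3, 51.0 and 49.7 FPKM in DMSO and 41.9, 38.9 and 37.6 FPKM in PD. Every PD library was below every DMSO library. The log2 fold change was -0.39 (SE 0.06, 95% interval -0.52 to -0.26, limma adjusted p = 0.00072), from 52.0 ± 2.94 to 39.4 ± 2.25 FPKM (SD, n = 3). No other annotated exon overlaps this gene.

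SMC1A (ENSG00000072501, chrX:53374149-53422728, minus strand), the partner of SMC3 in mitotic cohesin, was at 31.6, 31.7 and 33.1 FPKM in DMSO and 36.8, 36.3 and 37.7 FPKM in PD. It was the gene of the 10 whose PD libraries were all higher. Its mean rose from 32.1 ± 0.843 to 37.0 ± 0.712 FPKM (SD, n = 3), a log2 fold change of 0.20 (SE 0.03, 95% interval 0.12 to 0.28, limma adjusted p = 0.002), so the dimer partners moved in opposite directions.

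Of the SMC pair that both condensins use, SMC4 (ENSG00000113810, chr3:160399274-160434954, plus strand) was at 33.0, 31.9 and 28.5 FPKM in DMSO and 22.8, 19.9 and 18.2 FPKM in PD. The groups did not overlap although each spread over several FPKM. The mean fell from 31.2 ± 2.36 to 20.3 ± 2.32 FPKM (SD, n = 3), a log2 fold change of -0.60 (SE 0.09, 95% interval -0.80 to -0.39, limma adjusted p = 0.00082). TRIM59 and IFT80, on the other strand, share 19.0% and 2.98% of its exon bases. Neither was called, and TRIM59 was at 1.28 FPKM in DMSO and 1.27 FPKM in PD.

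SMC2 (ENSG00000136824, chr9:104094260-104141419, plus strand) was at 19.4, 19.2 and 18.4 FPKM in DMSO and 16.0, 14.7 and 14.0 FPKM in PD. Its groups did not overlap either. The mean went from 19.0 ± 0.516 to 14.9 ± 0.978 FPKM (SD, n = 3), a log2 fold change of -0.33 (SE 0.05, 95% interval -0.45 to -0.21, limma adjusted p = 0.0012). This is smaller in size than the change of SMC4, with 95% intervals that overlap, and no other annotated exon overlaps the gene.

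Condensin I was split. NCAPD2 (ENSG00000010292, chr12:6493356-6531955, plus strand), a HEAT-repeat subunit, was at 68.2, 68.4 and 68.0 FPKM in DMSO and 48.7, 49.0 and 50.8 FPKM in PD. Its groups were far apart with little spread, and it was the most abundant of the 10 genes in both treatments. The log2 fold change was -0.45 (SE 0.03, 95% interval -0.52 to -0.38, limma adjusted p = 1.9e-05), from 68.2 ± 0.238 to 49.5 ± 1.16 FPKM (SD, n = 3). MRPL51, which shares 5.92% of its exon bases from the other strand, was at 64.2 FPKM in DMSO and 65.8 FPKM in PD and was not called.

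NCAPG (ENSG00000109805, chr4:17810979-17844865, plus strand), the other HEAT-repeat subunit, was at 18.3, 19.7 and 19.0 FPKM in DMSO and 14.2, 12.6 and 13.0 FPKM in PD. All PD libraries were lower. Its mean fell from 19.0 ± 0.686 to 13.3 ± 0.814 FPKM (SD, n = 3), a log2 fold change of -0.49 (SE 0.05, 95% interval -0.61 to -0.37, limma adjusted p = 0.00018). LCORL, on the other strand, shares 33.7% of the exon bases of NCAPG. The level of LCORL fell from 1.12 ± 0.149 to 0.741 ± 0.0963 FPKM (SD, n = 3). How fragments from the shared bases were counted is not known, so the value of NCAPG is uncertain.

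NCAPH (ENSG00000121152, chr2:96335766-96377091, plus strand), the kleisin of condensin I, was at 25.6, 26.5 and 27.0 FPKM in DMSO and 26.2, 27.3 and 27.9 FPKM in PD. The groups overlapped. The log2 fold change was 0.04 (SE 0.04, 95% interval -0.05 to 0.13, limma adjusted p = 0.41) and turned to -0.01 under upper-quartile scaling, and both interval limits lie closer to 0 than the falls of NCAPD2 and NCAPG. No other annotated exon overlaps it.

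In condensin II, NCAPG2 (ENSG00000146918, chr7:158631169-158704804, minus strand) was at 34.1, 35.1 and 33.0 FPKM in DMSO and 31.1, 29.0 and 30.8 FPKM in PD. The groups were apart by a few FPKM. The mean fell from 34.1 ± 1.07 to 30.3 ± 1.15 FPKM (SD, n = 3), a log2 fold change of -0.17 (SE 0.04, 95% interval -0.26 to -0.07, limma adjusted p = 0.011).

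NCAPD3 (ENSG00000151503, chr11:134150113-134225504, minus strand) was at 28.0, 28.0 and 26.6 FPKM in DMSO and 25.4, 25.2 and 26.2 FPKM in PD. The lowest DMSO library lay just above the highest PD library. The log2 fold change was -0.10 (SE 0.04, 95% interval -0.19 to -0.02, limma adjusted p = 0.047), and the call was lost when any of DMSO replicates 1 and 2 and PD replicates 1, 2 and 3 was left out (adjusted p of 0.12, 0.13, 0.11, 0.13 and 0.058), without a filter on FPKM (0.056) and with replicate number as a block (0.094). VPS26B, on the other strand, shares 1.33% of the GENCODE exon bases of NCAPD3 and rose from 12.1 ± 0.831 to 20.4 ± 0.792 FPKM (SD, n = 3). JAM3 shares 10.1% and was under 1 FPKM. These exon bases also exceed the length behind the FPKM of NCAPD3.

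**Figure D3:**
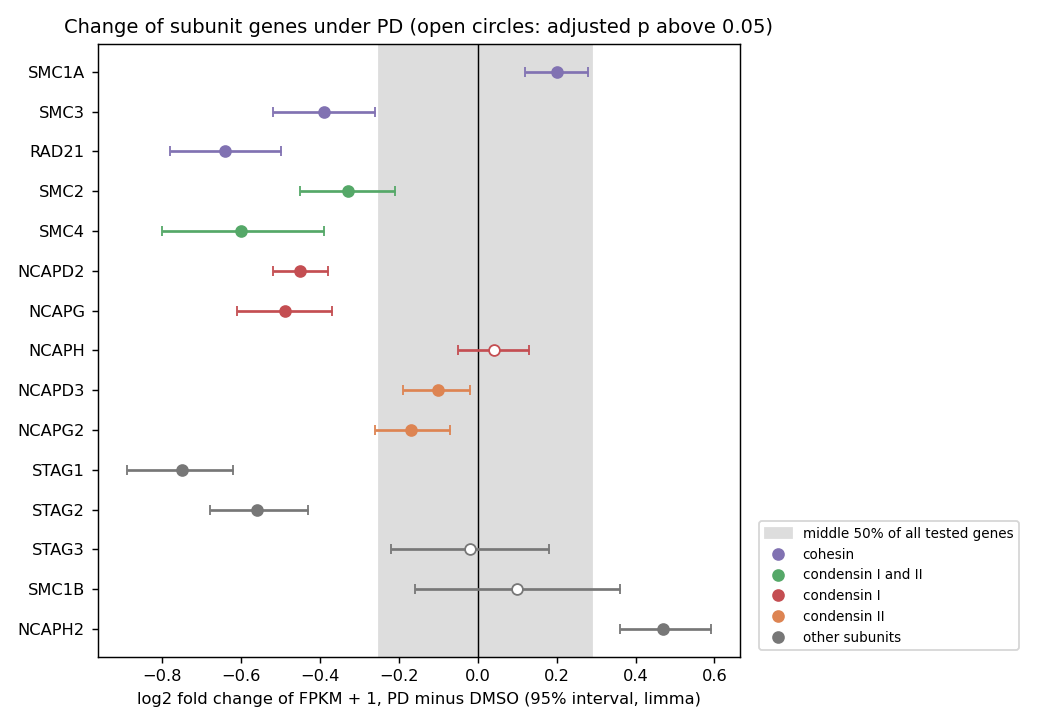
Log2 fold change of FPKM + 1, PD minus DMSO, with 95% limma intervals, for the 10 subunit genes, coloured by complex, and 5 further subunits, in grey. Open circles did not pass an adjusted p of 0.05 and the grey band holds the middle 50% of all tested genes. RAD21, SMC3, SMC4, NCAPD2, NCAPG, STAG1 and STAG2 lie wholly left of the band. NCAPD3 and NCAPG2 of condensin II lie within or near its left part, whereas NCAPH2, also of condensin II, lies right of it.

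Since FPKM are per length, the balance between subunits could be followed within each library, given here as log2 ratios of FPKM + 1 with no test because the pairs were chosen with the values known. SMC1A over SMC3 was at -0.79, -0.67 and -0.57 in DMSO and at -0.18, -0.09 and 0.01 in PD. On the linear scale the SMC1A level was 0.571 to 0.666 of the SMC3 level in DMSO and 0.878 to 1.00 of it in PD. The FPKM of the dimer partners thus became nearly equal, and how near depends on the exon lengths behind them. RAD21 over SMC3 moved from -0.34, -0.23 and -0.23 to -0.47, -0.60 and -0.48, and RAD21 had the larger fold change in size.

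The condensin I genes NCAPG and NCAPD2 were lower in PD relative to their condensin II counterparts. NCAPG over NCAPG2 was at -0.86, -0.81 and -0.76 in DMSO and at -1.08, -1.14 and -1.18 in PD. NCAPD2 over NCAPD3 was at 1.26, 1.26 and 1.32 in DMSO and at 0.91, 0.93 and 0.93 in PD, or 2.44 to 2.55 times the NCAPD3 level before and 1.92 to 1.95 times it after PD. The groups were apart for both pairs, by a mean of -0.32 and -0.35.

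Within the condensin I complex, NCAPH over NCAPG moved from 0.46, 0.41 and 0.48 in DMSO to 0.84, 1.06 and 1.04 in PD, or from between 1.35 and 1.42 times the NCAPG level to between 1.85 and 2.17 times it. This pair was added after its values had been seen. SMC2 over SMC4 went from -0.74, -0.70 and -0.60 to -0.49, -0.41 and -0.35. The groups did not overlap for any of the 6 pairs, which were chosen with the values known. No such share was worked out over other pairs of genes, and the groups were apart for 65.4% of single tested genes.

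**Figure D4:**
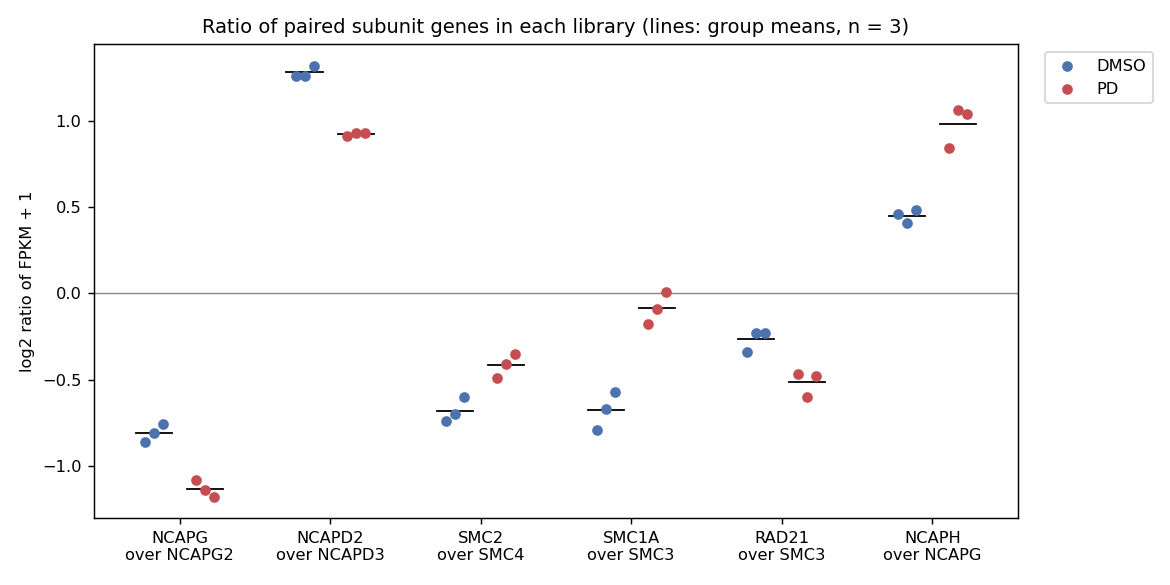
Log2 ratio of FPKM + 1 between 6 pairs of subunit genes in each DMSO (blue) and PD (red) library, with lines at the group means of 3 libraries. No pair has overlapping groups, and the pairs were chosen with the values known. SMC1A over SMC3 moved most, by 0.59, and reached about 0 in PD.

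In order of level, DMSO cells had NCAPD2 first (68.0 to 68.4 FPKM), then SMC3 and then RAD21, each apart from the next. NCAPG2, SMC1A and SMC4 followed with neighbouring ranges that overlapped, then NCAPD3 and NCAPH, which overlapped, and last SMC2 and NCAPG, which also overlapped. In PD, NCAPD2 stayed first (48.7 to 50.8 FPKM), SMC1A stood beside SMC3 with overlapping ranges, and RAD21 dropped among NCAPG2, NCAPH and NCAPD3, each overlapping its neighbour. SMC4, SMC2 and NCAPG were lowest, the last pair again overlapping.

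Further subunits of the complexes differed in their direction. STAG1, a HEAT-repeat subunit that binds the cohesin ring, was at 11.2, 11.7 and 11.5 FPKM in DMSO and 6.74, 5.85 and 6.66 FPKM in PD. Its alternative STAG2 was at 24.9, 24.4 and 22.9 FPKM in DMSO and 17.2, 15.5 and 15.5 FPKM in PD. All PD libraries were lower for both, with log2 fold changes of -0.75 (SE 0.06, limma adjusted p = 4e-05) and -0.56 (SE 0.05, limma adjusted p = 0.00011). The fold change of STAG1 was larger in size than that of any of the 10 genes, a difference that was not tested. PCCB, on the other strand, shares 21.2% of the exon bases of STAG1.

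NCAPH2, the kleisin of condensin II, was at 15.7, 16.1 and 17.5 FPKM in DMSO and 23.5, 22.3 and 23.7 FPKM in PD. It was higher in every PD library, with a log2 fold change of 0.47 (SE 0.05, limma adjusted p = 0.00016), so the kleisin of condensin II rose whereas RAD21, that of cohesin, fell. SCO2 on the other strand and a long noncoding RNA on the same strand each share 19.2% of its exon bases. The meiotic subunits STAG3 and SMC1B were at 0.982 ± 0.0747 and 0.496 ± 0.140 FPKM in DMSO and 0.952 ± 0.0858 and 0.599 ± 0.0666 FPKM in PD (SD, n = 3) and were not called (limma adjusted p = 0.84 and 0.47). REC8 stayed under the minimum mean of 0.5 FPKM, and RAD21L1 had at most 1 fragment in any library. Over the 5 subunits tested, 1 was upregulated, against 31.9% of all tested genes, and 2 downregulated, against 26.2%. The median was -0.02 on the log2 scale.

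Genes of cohesin loading, release and acetylation were mostly lower. Of 10 genes, 7 were downregulated, against 26.2% of tested genes, and 1 upregulated, against 31.9%, with a median of -0.26 on the log2 scale. WAPL, which opens the ring to release it from chromatin, fell from 22.3 ± 0.728 to 14.0 ± 1.19 FPKM (SD, n = 3), a log2 fold change of -0.64 (limma adjusted p = 0.00011). Its partners PDS5A and PDS5B fell as well, from 22.0 ± 0.425 to 15.5 ± 1.16 FPKM and from 4.05 ± 0.318 to 2.64 ± 0.180 FPKM (SD, n = 3). The loader genes NIPBL and MAU2 had log2 fold changes of -0.43 and -0.27 (limma adjusted p = 0.00026 and 0.0026). The gene of this list that rose was CDCA5, which encodes sororin, the protector of cohesion against WAPL, from 47.3 ± 2.12 to 54.3 ± 1.09 FPKM (SD, n = 3). NIPBL, MAU2 and CDCA5 were picked out with their values known.

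Of the 6 genes for cleavage and protection of cohesin, 5 were downregulated, against 26.2% of tested genes, and none was upregulated, against 31.9%. Their median was -0.36. PLK1, the kinase that drives cohesin off chromosome arms in prophase, was at 27.6, 26.9 and 27.3 FPKM in DMSO and 8.64, 9.08 and 9.29 FPKM in PD, and was a DEG with a log2 fold change of -1.50 (limma adjusted p = 1.4e-06). BUB1, whose kinase activity recruits the protector shugoshin to centromeres, fell from 23.5 ± 0.356 to 12.8 ± 0.705 FPKM (SD, n = 3). PTTG1, the securin that holds separase inactive, fell from 30.3 ± 1.01 to 22.8 ± 1.17 FPKM (SD, n = 3).

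Among 10 partners of chromosome condensation, 6 were downregulated, against 26.2% of tested genes, and 1 was upregulated, against 31.9%, with a median of -0.28. TOP2A, the topoisomerase that untangles chromatids alongside condensin, fell from 102 ± 2.12 to 48.8 ± 4.61 FPKM (SD, n = 3), and CCNB1, the cyclin of the mitotic kinase CDK1, fell from 64.3 ± 1.03 to 31.0 ± 0.174 FPKM (SD, n = 3). Both were DEGs, with log2 fold changes of -1.05 and -1.03 (limma adjusted p = 1.4e-05 and 1.6e-06). MKI67, which coats mitotic chromosomes, fell by 0.92 on the log2 scale. The gene that rose, named after its value had been seen, was AURKB, the kinase of the chromosomal passenger complex that helps condensin I to bind chromosomes, from 32.4 ± 1.35 to 40.8 ± 1.64 FPKM (SD, n = 3).

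The third SMC complex, SMC5-SMC6, and other SMC proteins showed no common direction, with a median of -0.01. Of 9 genes, 4 were upregulated, against 31.9% of tested genes, and 3 downregulated, against 26.2%. SMCHD1, an SMC hinge protein of the inactive X chromosome, fell from 8.10 ± 0.492 to 4.72 ± 0.419 FPKM, and EID3, a subunit of SMC5-SMC6 with 24 to 67 fragments per library, fell from 2.47 ± 0.273 to 1.17 ± 0.258 FPKM (SD, n = 3). NSMCE1, the RING-finger subunit, rose from 4.40 ± 0.211 to 6.66 ± 1.01 FPKM (SD, n = 3). Over the 5 lists of further subunits and partners, 23 of 40 tested genes (57.5%) were downregulated and 7 upregulated, against the same 26.2% and 31.9%.

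**Figure D5:**
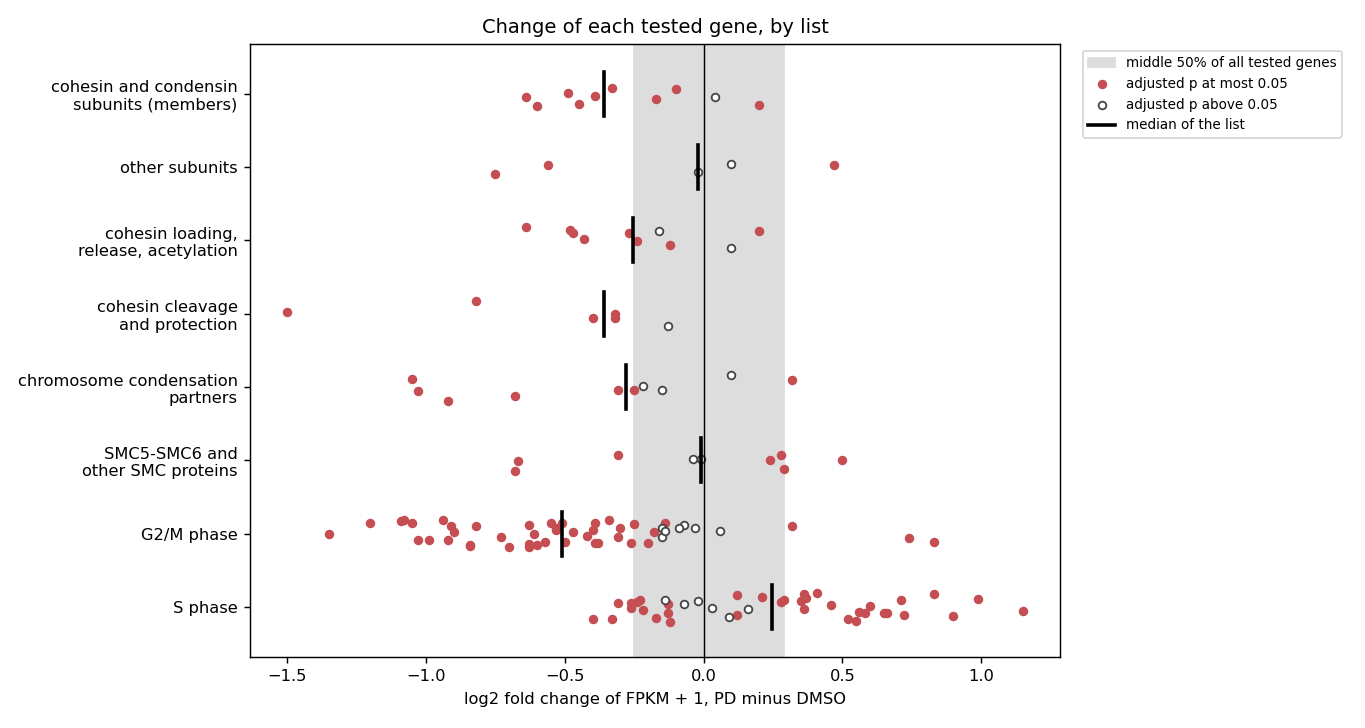
Log2 fold change of FPKM + 1, PD minus DMSO, of every tested gene in 8 lists, with filled points at an adjusted p of at most 0.05, black bars at each list's median and a grey band over the middle 50% of all tested genes. The medians of the 10 subunit genes (-0.36), cohesin loading, release and acetylation (-0.26), cohesin cleavage and protection (-0.36), condensation partners (-0.28) and G2/M genes (-0.51) lie left of the band's edge at -0.25, and that of S phase genes (0.25) lies in its right part.

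Genes of the cell cycle phases differed between the treatments as well. The 51 G2/M genes leave out SMC4, NCAPD2 and CTCF and share TOP2A, MKI67, AURKB, CDK1 and BUB1 with the lists above. Of the 51, 41 were downregulated, against 26.2% of tested genes, and 3 upregulated, against 31.9%. Their median was -0.51 on the log2 scale. Of 42 S phase genes, 24 were upregulated, against 31.9%, and 12 downregulated, against 26.2%, with a median of 0.25. The summed level of the G2/M genes was 2139 to 2222 FPKM in DMSO and 1769 to 1826 FPKM in PD, and that of the S phase genes was 1224 to 1243 FPKM and 1407 to 1436 FPKM. The summed level of the 9 hepatocyte genes with a row, nearly all of it CPS1, went from 222 to 229 FPKM in DMSO to 107 to 113 FPKM in PD, and that of the 4 epithelial genes from 95.4 to 101 FPKM to 114 to 120 FPKM. The part of these shifts in the values of the subunit genes was not tested.

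Among the 10 genes, RAD21 was the most changed of cohesin and SMC4 of condensin, and the genes most like them in pattern were sought among 4838 genes whose mean reached 10 FPKM, by Pearson's r of log2(FPKM + 1) over the 6 libraries. For RAD21 these were EIF3A, HSPD1 and EPRS1, each at r = 0.999, and 109 genes had an r above 0.99. For SMC4 the first was SMC2 at r = 0.997, followed by TCEA1 and KIF5B, both at r = 0.995, and 14 genes had an r above 0.99. The 6 points fall into 2 treatments and share library scaling, so r mainly describes the step between treatments.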

How the data were processed

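RNA of 3 PD and 3 DMSO dishes of cells labelled HepG2 was sequenced, and the labels gave the groups. The authors enriched poly(A) RNA, prepared NEBNext Ultra libraries, aligned reads to hg38 with HISAT2, counted with HTSeq 0.6.0 and deposited FPKM for 28563 genes. The annotation release and strand setting are not given in the sources used here. Exon overlaps were therefore taken from GENCODE on either strand, and genes with them are uncertain. Shares are of GENCODE exon bases, which can differ from those behind the FPKM, as for RAD21 and NCAPD3. The labels' dose is used; the study's methods state a somewhat lower dose.

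All fold changes use log2(FPKM + 1), a scale that makes changes of low genes look smaller. PD was compared with DMSO by limma 3.58.1 with trend in R 4.3.3 over 14400 genes whose mean reached 0.5 FPKM, without covariates. p-values were adjusted over all of them. DEGs changed at least 2-fold at an adjusted p of at most 0.05. The fit was tested on simulated data with a fixed spread and no replicate effect, which does not check the calls made here. Fragments behind the FPKM were worked back from the steps of the values; 99.75% of each library's total lies in the table, and no pair of libraries was a duplicate.

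The members and gene lists were chosen with earlier results of these data known. Genes named were all members, all further subunits, the 3 called genes of largest change per pathway list, cell markers reaching 1 FPKM, and the 3 genes most like RAD21 and SMC4; others are said to be named after their values were seen. Gene lists were described by counts, medians and summed FPKM, with no test of the list. Alternatives were a pseudocount of 0.1, no filter, a replicate block, leaving out each library, limma voom on fragments (at least 10 in 3 libraries), and median-of-ratios and upper-quartile scaling.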

Additional observations from a re-analysis of the deposited data

How the results depend on the processing

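Among 12 alternatives, the counts of subunit genes and list genes called stayed within 1.5 times of the values reported. The 6 subunit ratios, recomputed with a pseudocount of 0.1 and with each library left out, kept their direction. The 520 DEGs over all genes became 1248 with a pseudocount of 0.1 and 1735 with limma voom on fragments, and ranged from 511 to 561 when libraries were left out in turn. The cause of the rises was not tested. NCAPH turned from 0.04 to -0.01 under upper-quartile scaling (limma adjusted p = 0.91), and STAG3 from -0.02 to 0.00 without PD replicate 1 (limma adjusted p = 0.99; -0.06 without PD replicate 3). NCAPD3 kept its direction, with a log2 fold change of -0.12 to -0.09 when libraries were left out, but its adjusted p was 0.0095 to 0.13 over the alternatives. With 1 library left out, 7 to 8 of the subunit genes were downregulated and 1 upregulated.

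Median-of-ratios scaling gave 4259 genes called higher and 4146 called lower, and upper-quartile scaling 4167 and 4264, against 4588 and 3780 as reported. A replicate block gave 4414 higher and 3618 lower and 518 DEGs, and of the subunit genes it ended the call of NCAPD3 alone. Over 7575 genes the correlations of deviations between same-numbered PD and DMSO libraries were 0.01, -0.13 and 0.18. Between differently numbered libraries they ranged from -0.226 to 0.235. Whether the replicate numbers pair the samples cannot be told from these values. In each library 13468 to 13858 genes had under 10 fragments, RAD21L1 among them.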
